A study of Ovis aries with 60 samples.

Results

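As a spermatid matures, the nucleosomes that wrap its DNA are taken apart and replaced, first by transition proteins and then by protamines, which fold the sperm genome into a compact and largely silent form. Acetylation and ubiquitination of the histones, together with brief DNA breaks, open the chromatin for this exchange. Transcription stops as the nucleus condenses, so messages of the exchange machinery found in ejaculated sperm were made earlier, in the testis, and were carried along. The 7 spermatid chromatin packaging genes considered here cover these steps. TNP1 and TNP2 encode transition proteins, PRM1 encodes a protamine, BRDT encodes a testis bromodomain protein that binds acetylated histones, CHD5 encodes a chromatin remodeler, and RNF8 encodes a ubiquitin ligase that acts on histones and at DNA breaks. PYGO2, a reader of methylated histone H3, had no row in the count table and was not analysed here. The other 6 genes were among 28525 rows of the table, and all 6 were also among the 13577 genes that passed the filter on low counts.

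The samples were semen from 20 F2 Polypay rams, 10 in the methionine line and 10 in the control line. In each line 2 F2 rams descended from each of 5 F0 sires. The F0 sires were twin brothers, of which 1 received rumen-protected methionine (0.22%, 1.5 g) on top of the control diet between weaning and puberty, and the other received the control diet alone. Every F1 and F2 animal ate the control diet, so no F2 ram in either line was itself supplemented. Semen was collected by electroejaculation and treated with a somatic cell lysis buffer before total RNA was extracted, and the age of the F2 rams at collection is not given in the sources used here. Levels are given as CPM, counts relative to library size, scaled by the trimmed mean of M values (TMM CPM), and log2 levels have a prior count of 2. Rams are called by their sample names, which end in C for the control line and in T for the methionine line.

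The libraries differed widely. Counts assigned to genes ranged from 805831 to 13137757, 5 of the 20 libraries held under 2000000, and TMM factors ranged from 0.36 to 2.54. The paper gives a far narrower range of reads per library, so these totals are not sequencing depth. Sperm messages were present in all 20 libraries, as were those of other cells. The 15 sperm markers that passed the filter (among them SMCP, which encodes a mitochondrial capsule protein, and CRISP2, which encodes a secreted sperm protein) summed to 156.4 to 4946.8 CPM in the control line and to 218.1 to 3647.4 CPM in the methionine line. The 19 leukocyte markers (among them S100A8 and S100A9, calcium-binding proteins of neutrophils that squamous epithelium makes as well) summed to 137.8 to 58857.0 CPM in the control line and to 237.2 to 29687.1 CPM in the methionine line. S100A8 and S100A9 made up 78.5% of the counts of that list and followed the squamous score (r = 0.926 and 0.953) more closely than the leukocyte score (0.639 and 0.671), so the sums mostly give their level, while the leukocyte score used below weights the 19 genes equally. The 19 squamous epithelium markers (among them the keratin genes KRT13 and KRT4) summed to 257.4 to 110387.6 CPM in the control line and to 411.4 to 58053.1 CPM in the methionine line. KRT13, matched by gene identifier, weighs most in these sums, with a mean of 20040 CPM beside 4136 CPM for KRT4. Most of these markers followed the squamous score, but DSG3 (r = 0.563), KRT14 (0.392) and DSG1 (0.366) did so less. TP63 had r = -0.345 with it. The 7 simple epithelium markers (among them KRT19 and ELF3) ranged from 96.4 to 22441.1 CPM over both lines, and the 4 markers of earlier germ cells (among them KIT and STRA8) from 57.0 to 217.0 CPM. Of the Sertoli and Leydig cell markers 1 of 8 passed the filter, SOX9, and it too is expressed outside the testis. In the leukocyte list CYBB was at 0 in 1 library, and every other leukocyte and squamous marker with a row was counted in all 20. Between lines the marker scores, the mean log2 level of each list, overlapped. The sperm score was 4.63 ± 1.45 (SD, n = 10) in the methionine line and 4.46 ± 1.44 (SD, n = 10) in the control line (permutation p = 0.788), and for the other 4 scores the permutation p was between 0.344 and 0.994. These permutations shuffled single rams, although pairs of rams share an F0 sire. In such bulk samples fewer cells of a type and less RNA per cell cannot be told apart.

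The packaging genes varied far more between rams than between diet lines. PRM1, the protamine gene, was lowest in SpermRNA468C (34.8 CPM) and highest in SpermRNA485C (1531 CPM), a 44.1-fold span. In the control line PRM1 ran from 34.8 through a median of 249.0 to 1531 CPM, and in the methionine line from 41.7 through 108.4 to 1424 CPM. Both lines therefore held rams at the top and at the bottom of the range. SpermRNA485C (1531 CPM), SpermRNA382T (1424 CPM) and SpermRNA359T (1401 CPM) stood above the rest, followed by SpermRNA475C at 773.1 CPM and SpermRNA500T at 681.2 CPM. The remaining 15 rams did not exceed 380.2 CPM.

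TNP2 encodes the transition protein whose gene lies beside the protamine genes. Its level ran from 5.51 through 41.5 to 172.9 CPM in the control line and from 7.51 through 21.7 to 370.1 CPM in the methionine line, with SpermRNA468C lowest and SpermRNA382T highest. TNP1 encodes the other transition protein. Its level ran from 1.70 through 13.1 to 105.6 CPM in the control line and from 1.67 through 10.9 to 42.9 CPM in the methionine line. Here the 2 highest rams, SpermRNA485C (105.6 CPM) and SpermRNA475C (68.1 CPM), were of the control line, and SpermRNA382T stood at 31.5 CPM although it led for TNP2. The TNP1 level rested on 6 counts in SpermRNA480T, SpermRNA329T and SpermRNA350C and on 8 counts in SpermRNA468C, so these low levels were imprecise.

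Among the genes that act on histones, BRDT ran from 4.04 through 14.9 to 195.8 CPM in the control line and from 2.52 through 22.7 to 156.0 CPM in the methionine line. SpermRNA485C, SpermRNA359T and SpermRNA382T were again the 3 highest, at 195.8, 156.0 and 142.6 CPM, while the fourth, SpermRNA426T, was at 57.5 CPM. CHD5 had a narrower range, from 8.05 through 30.5 to 134.0 CPM in the control line and from 10.7 through 29.6 to 129.8 CPM in the methionine line. RNF8 had the narrowest range of the 6 genes, from 2.02 through 6.86 to 13.5 CPM in the control line and from 3.36 through 5.95 to 14.8 CPM in the methionine line. Its highest level was 7.35 times its lowest, where the corresponding ratio was 77.8 for BRDT, 67.2 for TNP2, 63.3 for TNP1, 44.1 for PRM1 and 16.6 for CHD5. RNF8 was also the most shallowly counted member, with 562 reads over the 20 rams.

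**Figure D1:**
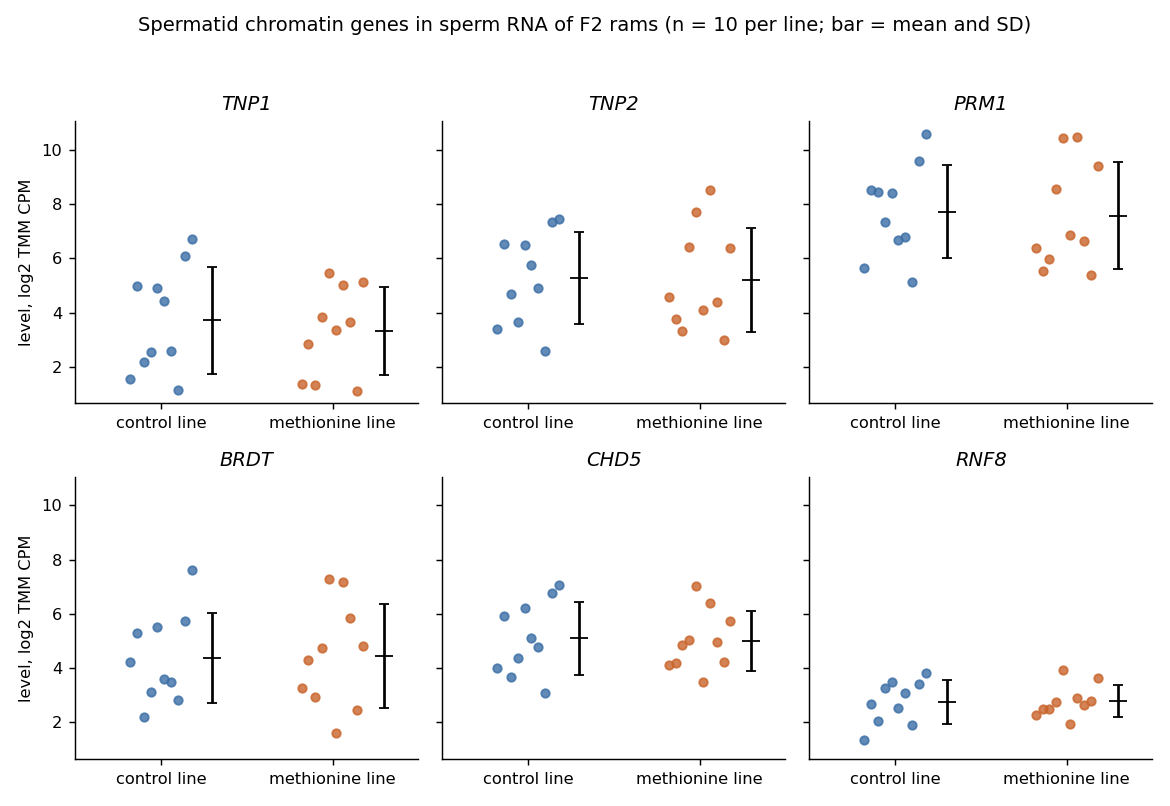
Level of each packaging gene (y axis, log2 TMM CPM) in each F2 ram of the control line (blue) and methionine line (orange), 10 rams per line; black bars give mean and SD. For every gene the lines overlap over most of their range, and the spread is smallest for RNF8 (SD 0.80 in the control line and 0.60 in the methionine line).

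The comparison of the lines asked whether the diet of the F0 sire was associated with the level of these messages 2 generations later. None of the 6 genes passed the test (edgeR quasi-likelihood, adjusted p = 0.9998 for each), and the levels of the lines overlapped for each of them. Across the genome 0 of 13577 genes were called at an adjusted p of 0.05, which is 0.0% of the tested genes. At an unadjusted p under 0.05 there were 104 genes (0.766%), none of them a packaging gene, and DESeq2 gave 0 genes called and 174 at that unadjusted level. TNP1 had the largest difference among the 6, with a mean of 27.4 ± 34.4 CPM (SD, n = 10) in the control line and 15.7 ± 15.1 CPM (SD, n = 10) in the methionine line. Its log2 fold (methionine over control) was -0.81 with a standard error of 0.70, below the median of all tested genes of -0.05. The other log2 folds were 0.36 ± 0.73 (SE) for TNP2, 0.19 ± 0.77 for PRM1, 0.21 ± 0.73 for BRDT, -0.22 ± 0.53 for CHD5 and -0.04 ± 0.34 for RNF8. The mean log2 level (methionine minus control) ran the other way from the log2 fold for TNP2 (-0.07, permutation p = 0.935), PRM1 (-0.14, p = 0.871) and RNF8 (0.03, p = 0.925). The standard errors of 0.34 to 0.77 limit the size of difference that could be detected here.

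The sign of most of these differences hung on single rams. Without SpermRNA382T the log2 fold of TNP2 was -0.33, that of PRM1 -0.24 and that of BRDT -0.19. Without SpermRNA359T it was -0.22 for PRM1 and -0.26 for BRDT. Without SpermRNA485C it was 0.09 for CHD5 and 0.12 for RNF8. RNF8 also took a positive sign, between 0.01 and 0.05, when any 1 of SpermRNA409C, SpermRNA413C, SpermRNA475C, SpermRNA320T, SpermRNA323T, SpermRNA329T and SpermRNA372T was left out. TNP1 remained negative in each of these omissions, from -1.13 to -0.26. With the leukocyte and squamous scores as covariates, however, it was -0.05 (unadjusted p = 0.915, edgeR), and the largest difference was then that of BRDT at 0.84 (unadjusted p = 0.0659, adjusted p = 0.9999). With the sperm score as covariate TNP1 was at -0.58 (unadjusted p = 0.0915, edgeR). With counts summed by sire it was at -0.95 (unadjusted p = 0.110, edgeR), and the adjusted p was 0.9998 in both settings. In the 15 libraries of at least 2000000 counts, an alternative chosen after the data were seen, the log2 fold was -0.28 for TNP2, -0.42 for PRM1 and -0.33 for BRDT, against a median of -0.17 over all genes. That of TNP1 was -1.35 in these libraries (unadjusted p = 0.176, adjusted p = 0.9998, edgeR).

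Rams that shared an F0 sire were set beside rams that did not. The median absolute log2 difference between the 10 pairs of rams that shared a sire was 1.76 for TNP1, 2.59 for TNP2, 2.76 for PRM1, 1.88 for BRDT, 1.10 for CHD5 and 0.88 for RNF8. Between the 180 other pairs of rams it was 1.79, 1.82, 1.85, 1.82, 1.20 and 0.71 in the same order. The differences between rams of 1 sire were the larger for TNP2, PRM1, BRDT and RNF8 and the smaller for TNP1 and CHD5, and these medians are a description. Sire pairs were unlike each other in this. SpermRNA485C and SpermRNA350C, both descended from sire 6, had PRM1 levels of 1531 and 49.2 CPM. SpermRNA366C and SpermRNA413C, both descended from sire 12, were close at 364.9 and 337.6 CPM.

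The rams that led for PRM1 were those whose libraries held the most sperm message. The sperm marker score was 7.21 in SpermRNA485C, 6.84 in SpermRNA382T, 6.80 in SpermRNA359T, 6.08 in SpermRNA475C and 5.86 in SpermRNA500T, and it did not exceed 5.21 in the other rams. No packaging gene belonged to the sperm marker list. Not every gene kept to this order of rams. RNF8 stood at 6.87 CPM in SpermRNA382T but at 9.22 CPM in SpermRNA409C, where the sperm score was 3.15. These levels rested on 17 and 28 counts, so their order is imprecise. Over the 20 rams the Pearson correlation with the score was 0.956 for TNP2 (Spearman rho 0.937), 0.938 for PRM1 (0.904), 0.927 for CHD5 (0.887), 0.913 for TNP1 (0.926), 0.869 for BRDT (0.802) and 0.737 for RNF8 (0.722). The permutation p was 1e-05, the smallest that 100000 resamples can give, for every gene except RNF8 (p = 0.0001), and the Benjamini-Hochberg adjusted p over all 60 relations computed was at most 0.000261. Members and markers were chosen with earlier results of these data known, so a p-value against no correlation says little here. Without the 2 libraries farthest from the median score, r was between 0.746 and 0.955. Within the control line r was between 0.732 and 0.958, and within the methionine line between 0.765 and 0.979. By rank RNF8 did not pass within the methionine line (rho 0.624, permutation adjusted p = 0.108). Over the means of the 10 F0 sires 5 of the 6 relations passed, and that of RNF8 did not, with r = 0.244. By rank correlation 3 of the 6 passed over sire means, since TNP1 (adjusted p = 0.0564, permutation test) and CHD5 (0.057) were lost as well. The share of all tested genes that pass over sire means was not computed.

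**Figure D2:**
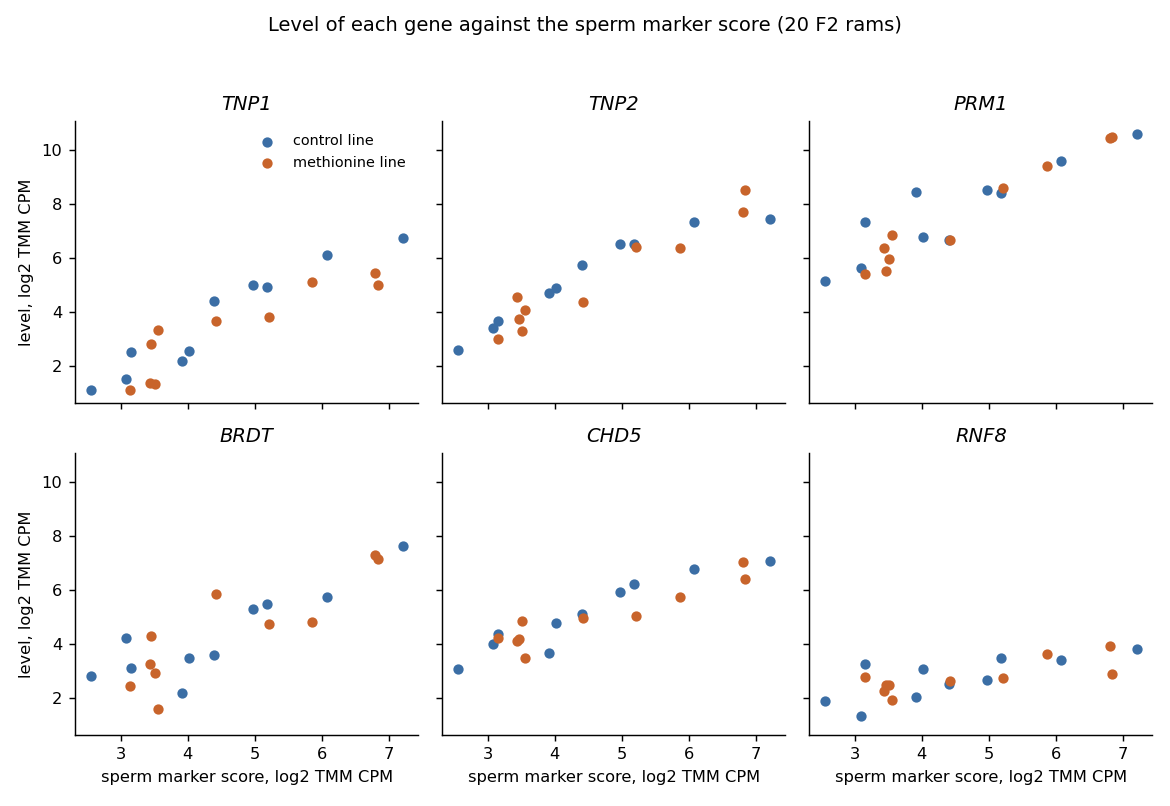
Level of each packaging gene (y axis, log2 TMM CPM) against the sperm marker score of the same library (x axis, mean log2 TMM CPM of 15 sperm markers) for 20 F2 rams, blue for the control line and orange for the methionine line. The points of both lines lie along 1 rising band in each panel, tightest for TNP2 (r = 0.956) and loosest for RNF8 (r = 0.737).

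Such a correlation was common in these libraries. Of the 13562 tested genes outside the sperm list, 2037 (15%) had an r of at least 0.7 with the score, as had all 6 packaging genes. TNP2 was exceeded by 1.24% of those genes, PRM1 by 2.20%, CHD5 by 2.99%, TNP1 by 3.92%, BRDT by 6.97% and RNF8 by 13.5%. Scaling by total counts in place of TMM left r between 0.887 and 0.975 for the 6 genes. The share of all other genes at or above 0.7 was then 43%. The places of the members moved little with the scaling, since with total counts TNP2 was exceeded by 1.61% of the other genes, PRM1 by 3.21%, CHD5 by 3.45%, TNP1 by 4.73%, BRDT by 8.35% and RNF8 by 14.6%.

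With the other cell types the sign was opposite. The correlation with the squamous epithelium score was -0.837 for CHD5, -0.812 for BRDT, -0.803 for TNP2, -0.770 for PRM1, -0.746 for TNP1 and -0.534 for RNF8, with permutation adjusted p-values of at most 0.0224. Of all tested genes outside the list, 27.1% had an r of -0.534 or below. With the leukocyte score r was between -0.696 (PRM1) and -0.559 (BRDT), with adjusted p-values of at most 0.0162, and 13.1% of the other tested genes had an r of -0.559 or below. Without the 2 libraries farthest from the median score, the leukocyte relations ranged from -0.601 to -0.362. With total counts in place of TMM the squamous relations were between -0.624 and -0.333 with 5 of 6 called, where 17.3% of the other tested genes had an r at or below that of the weakest of the 5 (-0.523). By rank correlation 3 of 6 were then called. With the same scaling the leukocyte relations were between -0.368 and -0.151 with 0 of 6 called (0 at an unadjusted p under 0.05 as well). Within the lines 2 of 6 leukocyte relations passed in the control line and 1 of 6 in the methionine line, where n was 10, and by rank 0 of 6 passed in either line. Over sire means 0 of 6 leukocyte relations passed, and r was positive for CHD5 (0.115) and RNF8 (0.36). For the squamous score 2 of 6 passed over sire means (3 by rank). Most simple epithelium markers followed the squamous score, with r = 0.946 for KRT19, 0.957 for ELF3, 0.961 for MUC1, 0.965 for CLDN4 and 0.917 for CDH1. EPCAM (0.332) and KRT18 (-0.098) followed it little. The simple epithelium score is therefore largely not separate from the squamous score. It gave r between -0.770 and -0.466, with 5 of 6 called, and 14.5% of the other tested genes had an r at or below that of the weakest of the 5 (-0.669). With total counts 3 of 6 were called by Pearson's r (at or below -0.486, as were again 14.5% of the other genes) and 0 of 6 by rank. Within the control line 3 passed and within the methionine line 2, and over sire means 0 passed by Pearson's r, which reached 0.13 for RNF8. By rank 3 passed over sire means, namely TNP2, BRDT and CHD5 (permutation adjusted p = 0.0346 for each). For all these scores, the share of other tested genes was not computed by rank, within lines or over sire means.

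With the score of earlier germ cells no relation passed (r between -0.370 and 0.176, and 0 of 6 at an unadjusted permutation p under 0.05 by Pearson's r). By rank none passed either, and PRM1 had rho -0.451 (unadjusted permutation p = 0.0479, adjusted p = 0.0654). Its 4 markers did not move together, since r with the sperm score was 0.722 for SYCP1 and 0.373 for ZBTB16 but -0.651 for KIT and -0.639 for STRA8, and the latter pair had r = 0.708 and 0.792 with the squamous score. The mean of so split a list says little about earlier germ cells. The absence of calls also depended on the scaling, since total counts gave r between 0.649 and 0.908, with all 6 called. An r of at least 0.649 was then held by 51.7% of the other tested genes. The total of counts assigned to genes, which is not sequencing depth, moved with the packaging genes as well. The correlation with the log2 total count was -0.583 for CHD5, -0.524 for BRDT and -0.506 for TNP1 (permutation adjusted p of at most 0.0344), and it did not pass for RNF8 (-0.446), TNP2 (-0.406) or PRM1 (-0.314). An r at or below that of the weakest of these 3 was held by 22.8% of all tested genes. With total counts all 6 passed (permutation adjusted p from 0.00115 to 0.0302), among them RNF8 (-0.700), TNP2 (-0.579) and PRM1 (-0.519), and 57.2% of all tested genes had an r of -0.519 or below. In the 15 libraries of at least 2000000 counts 1 of the 6 passed, CHD5, with r = -0.601. The score, the total count and the level come from the same library, and the part of the total count in these relations was not tested. In those 15 libraries all 6 relations with the sperm score were called, with r between 0.764 and 0.961. The share of all tested genes was not computed in these 15 libraries, for the total count or for the score.

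The packaging genes varied together across rams. All 15 pairs had a positive correlation that passed (r from 0.635 to 0.928, permutation adjusted p at most 0.00469). Among all pairs of tested genes 11.4% had an r of at least 0.635, and for each packaging gene other genes of the table lay closer than its fellow members, up to 16.8% of the tested genes in the case of PRM1 seen from BRDT (Spearman rho). The closest were TNP2 with PRM1 (r = 0.928, rho 0.905), TNP1 with TNP2 (0.896, rho 0.901), TNP2 with CHD5 (0.888, rho 0.844) and BRDT with CHD5 (0.883, rho 0.863). The loosest were BRDT with RNF8 (0.635, rho 0.662) and TNP2 with RNF8 (0.663, rho 0.669). Without the 2 libraries farthest from the median of 1 gene of the pair, r was between 0.587 (TNP2 with RNF8) and 0.917 (TNP1 with TNP2). Within lines, 14 of 15 pairs passed in the control line and 12 of 15 in the methionine line (12 and 8 by rank). Over the 10 sire means 5 of 15 passed (4 by rank), with r from 0.118 to 0.890. The share of all gene pairs was not computed within lines or over sire means.

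The pair correlations were lower once marker scores were taken out, with p-values adjusted over the 15 pairs. When the part that varied linearly with the leukocyte and squamous scores was removed, 9 of 15 pairs passed, with r from 0.234 (PRM1 with BRDT) to 0.795 (CHD5 with RNF8). How many pairs of all tested genes would pass after the same removal was not computed. The pairs of the small basic proteins were among the 9, at 0.772 for TNP2 with PRM1, 0.713 for TNP1 with TNP2 and 0.609 for TNP1 with PRM1. So was every pair with CHD5, from 0.497 (with PRM1) to 0.795 (with RNF8). When the part that varied with the sperm score was removed, a step chosen after the data were seen, 0 of 15 pairs passed and r ran from -0.445 to 0.518. At an unadjusted permutation p under 0.05 there were then 2 pairs, CHD5 with RNF8 (0.518, p = 0.0194) and PRM1 with BRDT (-0.445, p = 0.0488). All members followed the sperm score (r between 0.737 and 0.956), so its removal also takes out variation of their own. A fall of the pair correlations was thus largely set in advance. The step cannot tell library composition from other variation that the members share.

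**Figure D3:**
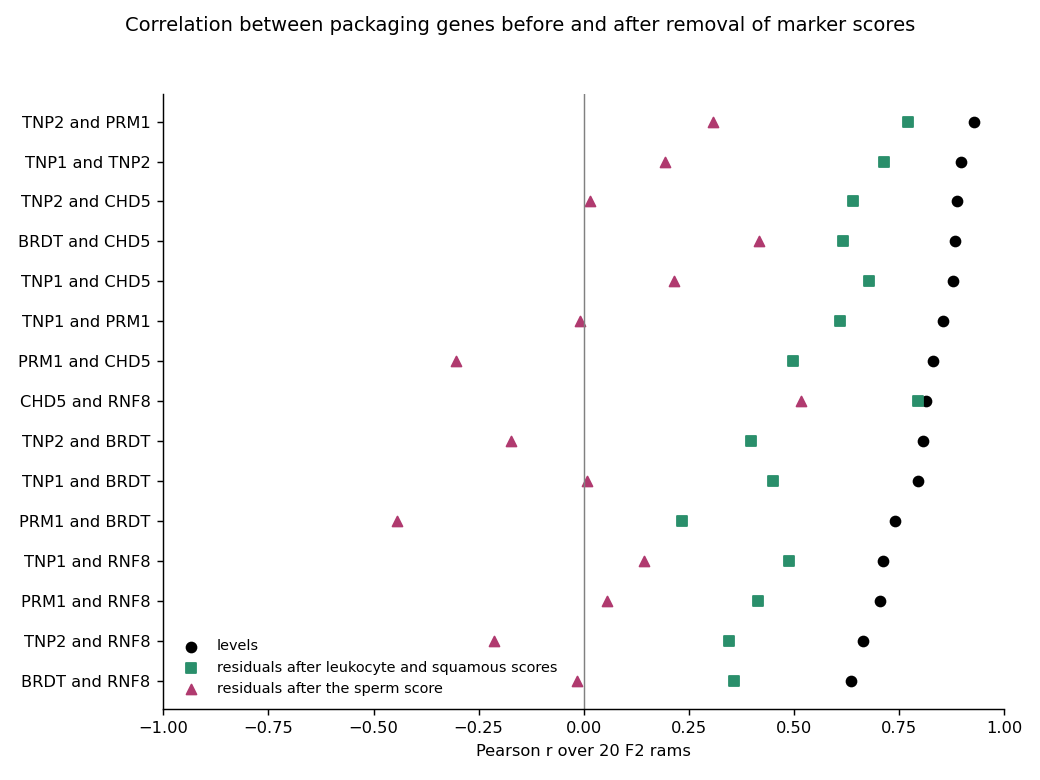
Pearson r over 20 F2 rams (x axis) for each of the 15 pairs of packaging genes (rows): black circles for levels, green squares for residuals after the leukocyte and squamous scores, pink triangles for residuals after the sperm score. The circles lie between 0.635 and 0.928 and the triangles spread on both sides of 0, from -0.445 to 0.518.

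The balance between transition protein and protamine messages can be read from the counts of 1 library without any scaling. TNP1 made up 4.69% of TNP1 and PRM1 counts in the median ram, and TNP2 made up 16.9% of TNP2 and PRM1 counts. These shares also carry the lengths of the transcripts, so they compare rams and not genes. In SpermRNA449C the TNP1 share was 17.1% (exact 95% interval 12.01 to 23.29) and in SpermRNA400C it was 1.15% (0.703 to 1.77). The same 2 rams were the extremes for TNP2, at 34.6% (28.6 to 41.0) in SpermRNA449C and 6.82% (5.71 to 8.07) in SpermRNA400C. Both were of the control line. The intervals cover counting error only, and the reads carried no molecular identifiers.

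Even among the rams richest in sperm message the balance differed. TNP1 was 6.45% (5.88 to 7.06) in SpermRNA485C, 2.97% (2.63 to 3.35) in SpermRNA359T and 2.17% (1.72 to 2.70) in SpermRNA382T. TNP2 took another order, at 20.6% (19.4 to 21.9) in SpermRNA382T and 10.1% (9.46 to 10.9) in SpermRNA485C. Between the transition proteins, TNP1 was therefore 37.9% of both in SpermRNA485C (35.1 to 40.8) and 7.85% in SpermRNA382T (6.25 to 9.70). For the TNP1 share the interval lay above the median of the rams in 8 rams and below it in 5, and for the TNP2 share in 7 and 6.

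No ratio had a correlation with composition that passed. The correlation of the log2 ratio of TNP1 to PRM1 was -0.01 with the sperm score, 0.17 with the leukocyte score and 0.02 with the squamous score. For TNP2 to PRM1 the values were 0.01, 0.15 and -0.06, and for TNP1 to TNP2 they were -0.03, 0.08 and 0.07. None of the 9 passed (permutation adjusted p at least 0.55), and the ratios were chosen after the levels had been seen. Within lines 8 of the 9 relations had opposite signs, and the widest apart was TNP1 to TNP2 against the squamous score, at -0.62 in the control line and 0.57 in the methionine line. For TNP1 to PRM1 against the same score the values were -0.42 and 0.65. These differences were not tested. Between lines the mean log2 ratio (methionine minus control) differed by -0.28 for TNP1 to PRM1, by 0.07 for TNP2 to PRM1 and by -0.35 for TNP1 to TNP2. The permutation p-values were 0.543, 0.836 and 0.365, and 0.815 to 0.836 after adjustment over the 3 ratios.

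**Figure D4:**
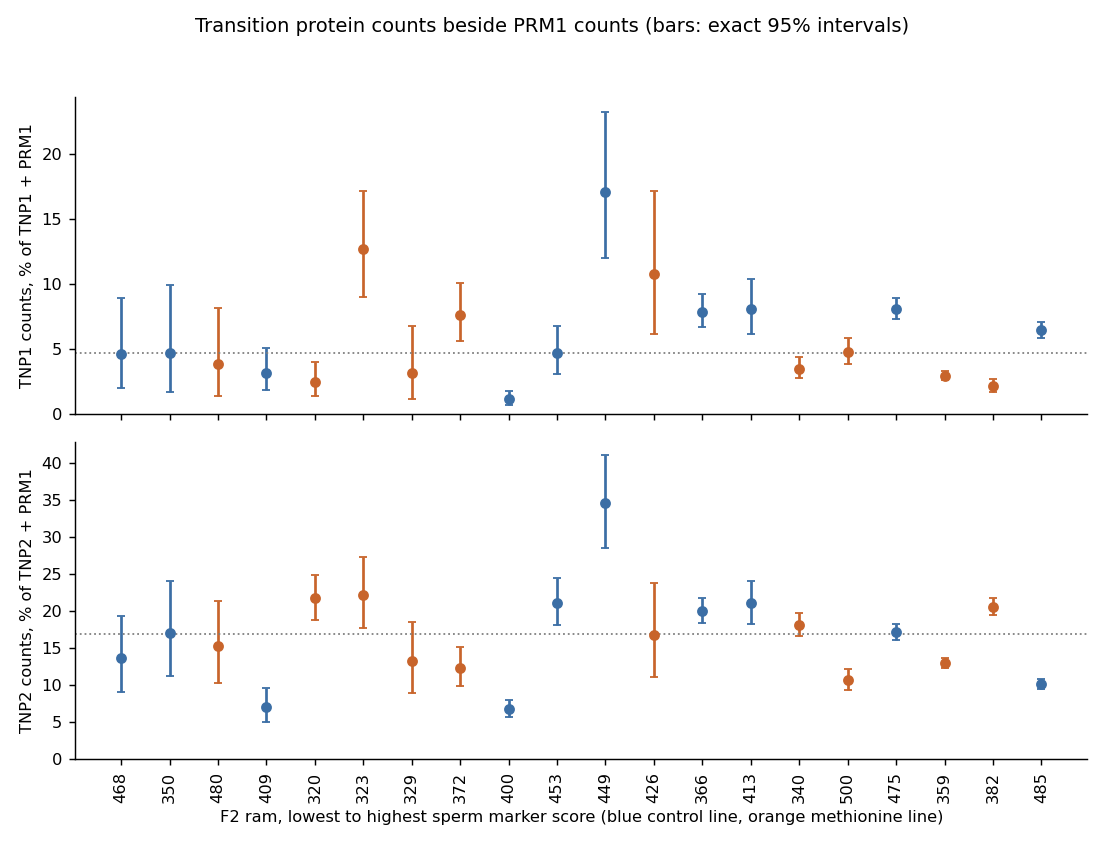
TNP1 counts as a percent of TNP1 plus PRM1 (top) and TNP2 counts as a percent of TNP2 plus PRM1 (bottom) in each of 20 F2 rams, ordered on the x axis by sperm marker score; bars are exact 95% intervals, the dotted line is the median ram, blue is the control line and orange the methionine line. SpermRNA449C is highest in both panels (17.1% and 34.6%), SpermRNA400C is lowest in both (1.15% and 6.82%), and the shares show no slope from left to right.

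In the RefSeq annotation of another assembly (ARS-UI_Ramb_v3.0), used here for gene order only, TNP2, PRM3, PRM2 and PRM1 stand next to each other on chromosome 24, between SOCS1 and RMI2. PRM3, which encodes a small acidic protein of the cluster, ran from 2.54 to 52.5 CPM and correlated with TNP2 (r = 0.938) and PRM1 (r = 0.913). The flanking SOCS1, a suppressor of cytokine signaling, had r = -0.479 with TNP2 and -0.525 with PRM1, and the next gene out, CLEC16A, had -0.104 and -0.038. The strand used in counting is not given in the sources used here, so reads of overlapping transcripts within the cluster cannot be told apart. PRM2 had no row.

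The genes whose pattern over the 20 rams was most like that of a packaging gene were found by Spearman rho over the tested genes. For PRM1 they were SCMH1, a polycomb group gene (rho 0.992), SMKR1 (0.967) and ECT2L (0.965). For TNP1 they were LOC101115733 (0.982), SLC6A16 (0.964) and SMARCC1, which encodes a chromatin remodeling subunit (0.964). For TNP2 they were MBD3, which encodes a methyl-CpG-binding domain protein (0.971), SPATA6, a gene needed for the sperm head and tail junction (0.970), and LOC105610127 (0.967). Next to BRDT stood the synaptonemal complex gene SYCP2 (0.968), TSKS, which encodes a substrate of testis kinases (0.961), and LOC105612031 (0.959). Next to CHD5 stood TMC7 (0.980), the clock gene PER3 (0.979) and LOXHD1 (0.979). RNF8 had less close companions, CPT1B, an enzyme of fatty acid transport into mitochondria (0.905), the ankyrin gene ANK3 (0.898) and the collagen gene COL6A5 (0.892). The other packaging genes were left out of this search, and none of them ranked high enough to enter it. PRM1 was the closest of the 5 to TNP2 but ranked 199 of 13576 genes for it, and CHD5 was the closest to RNF8 and ranked 96.

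In these mixed libraries the genes of the wider packaging pathway did not all follow the sperm score. RNA of other cells can enter their levels, and its part was not tested. Of 40 partner genes in 5 lists, 29 were tested, and none was called between the diet lines or had an unadjusted p under 0.05. The median log2 folds of the lists lay between -0.13 and 0.17, beside -0.05 for all genes. Among the other protamines and spermatid histones 3 of 9 were tested. PRM3 followed the sperm score (r = 0.954). H1-6, the testis linker histone, found under an identifier that RefSeq pairs with it, did the opposite at r = -0.648 and had r = 0.726 with the squamous score, with a log2 fold between lines of 0.15 ± 0.70 (SE). Only that identifier links the row to H1-6, and its pattern leaves the match uncertain. H3-3A, which encodes the replacement histone H3.3, had r = -0.725 with the sperm score and 0.712 with the squamous score. Its log2 fold was -0.35 ± 0.64. With total counts r with the sperm score was -0.578 for H1-6 and -0.603 for H3-3A.

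Of the 12 tested genes that mark or remove histones, 3 had an r of at least 0.7 with the sperm score, namely TSSK6 (0.980), PHF7 (0.879) and PIWIL1 (0.830). TSSK6, a testis kinase needed for histone replacement, ran from 14.8 to 1655 CPM with a log2 fold between lines of 0.40 ± 0.80 (SE). PHF7 is a ubiquitin ligase for histone H2A and PIWIL1 a PIWI protein. CDYL, at -0.760, was below -0.7, and with total counts it was at -0.577. With the squamous score CDYL had r = 0.913. DOT1L, a histone H3 methyltransferase, had the largest log2 fold between lines of this list at 0.48 ± 0.50, and SIRT1, a deacetylase, the lowest at -0.29 ± 0.43. PRM3, PHF7, PIWIL1 and CDYL, and likewise ADAD1, SOX30, KDM3A and TOP2B, were picked after their values were seen.

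Among 9 tested genes that switch on or store the protamine and transition protein messages, YBX2, which encodes a germ cell protein that holds messages untranslated, had r = 0.942 and the largest log2 fold at 0.47 ± 0.62. ADAD1 (0.921) and SOX30 (0.711), a spermatid transcription factor, also reached 0.7. CREM, the transcription factor known for switching on these messages, had r = -0.632 and a log2 fold of -0.52 ± 0.51, and with total counts r was -0.205. Its gene also has products in other tissues. KDM3A, a histone demethylase that acts on the TNP1 and PRM1 promoters, had r = -0.681, but with total counts it was 0.409. Of the protamine kinases SRPK1 was tested (r = 0.833, log2 fold 0.17 ± 0.36). Among 4 tested genes of DNA breaks and their repair, PARG, which removes poly(ADP-ribose), had r = 0.720 and a log2 fold of -0.19 ± 0.42. PARP2 had r = -0.097 (0.466 with total counts) and a log2 fold of 0.48 ± 0.43. TOP2B had r = -0.674 (-0.254 with total counts), and r = 0.755 with the leukocyte score. In all, 9 of the 29 partners had an r of at least 0.7, where 15% of all genes had one. With total counts 14 of 29 did, where 43% of all genes had one.

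**Figure D5:**
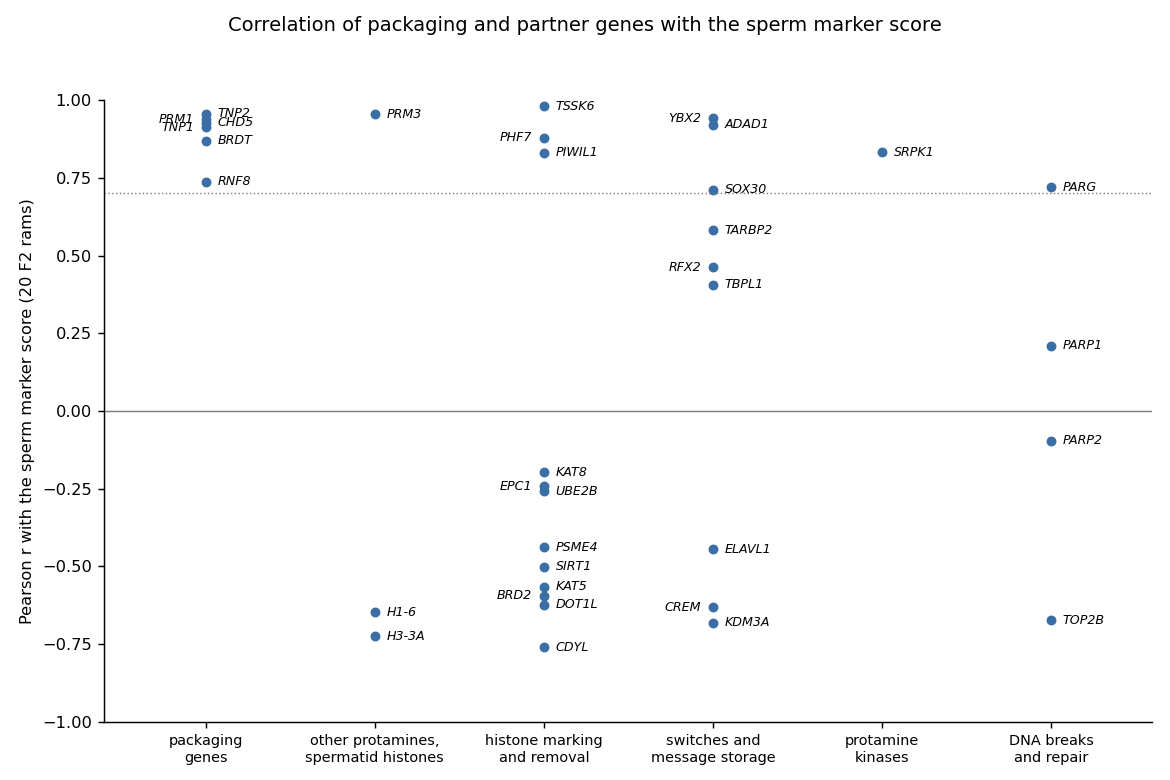
Pearson r with the sperm marker score over 20 F2 rams (y axis) for the 6 packaging genes and the tested genes of 5 partner lists (columns); the dotted line is r = 0.7. The packaging genes lie between 0.737 and 0.956, while the partner lists spread from -0.760 (CDYL) to 0.980 (TSSK6).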

How the data were processed

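The deposited table holds raw counts per gene for 20 F2 sperm RNA samples. The authors trimmed 100-base single-end reads with Trimmomatic, aligned them with STAR to Oar_rambouillet_v1.0 and counted reads per gene. Which strand column was used is not given in the sources used here, and no duplicate removal is stated. Library totals were 805831 to 13137757, so low genes have wide counting error.

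A gene was kept when over 10 rams had 15 or more counts for it, a filter that follows the wording of the authors' methods and kept 13577 genes of these counts. The authors' own set of expressed genes differs in size and could not be rebuilt here. Lines were compared with edgeR 4.0.16 (TMM, quasi-likelihood, Benjamini-Hochberg adjusted over all tested genes), with 20 rams as replicates although pairs share an F0 sire. In counts simulated for this comparison, 123 of 200 genes changed 4-fold were recovered among 13577 genes, with 3 false calls. Each gene was drawn on its own there, without shared library composition or sire pairs. The recovery is therefore not the power of the real comparison. Standard errors come from the F statistic. Correlations used two-sided permutation tests (100000 resamples, SciPy 1.17.1), adjusted over 60 relations, or over 15 pairs for residuals. Apart from those on sire means, the permutation tests shuffled single rams although pairs share an F0 sire. This includes the tests of scores, levels and ratios between lines. Alternatives were DESeq2 1.42.0, other scalings, no filter, covariates, sire sums and omission of each library. Rows were matched to the lists by symbol, older symbol or gene identifier.

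The members and lists were chosen with earlier results of these data known. Named genes were all members, the 3 tested genes with the highest rho to each, in each partner list the gene with the highest mean and those with the largest and smallest log2 fold, and the 2 highest genes of each marker list. Methylation near the members was not analysed here, since no annotation of the files' build was used here. A gene listed among the partners is not reported here and enters none of their counts.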

Additional observations from a re-analysis of the deposited data

How the results depend on the processing

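No gene was called between lines under DESeq2, RLE scaling, total counts, no filter, sire sums, marker covariates, a twin-pair block or omission of any 1 library (0 in each). Unadjusted p-values under 0.05 ranged from 50 genes with the block to 715 without the filter. The twin pairs of the block were taken from consecutive sire numbers, which the labels do not state to be pairs. Under the block the log2 fold of PRM1 was -0.0062. Omitting 1 library gave log2 folds of -1.13 to -0.26 for TNP1, -0.33 to 0.65 for TNP2, -0.24 to 0.78 for PRM1, -0.26 to 1.05 for BRDT, -0.60 to 0.086 for CHD5 and -0.24 to 0.12 for RNF8. Signs also changed with sire sums (PRM1 -0.058, BRDT -0.10), with the sperm score as covariate (TNP2 -0.28, PRM1 -0.46), with the leukocyte and squamous scores as covariates (CHD5 0.13, RNF8 0.083), without the filter (RNF8 0.020), and in libraries of at least 2000000 counts (TNP2 -0.28, PRM1 -0.42, BRDT -0.33). The adjusted p stayed at or above 0.9997 in every one of these 29 settings for each gene.

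Pairs of members called fell from 15 to 5 over sire means, to 9 after the leukocyte and squamous scores and to 0 after the sperm score, where r was -0.0092 for TNP1 with PRM1, -0.17 for TNP2 with BRDT, -0.21 for TNP2 with RNF8, -0.44 for PRM1 with BRDT, -0.30 for PRM1 with CHD5 and -0.016 for BRDT with RNF8. Leukocyte relations called fell from 6 to 0 with total counts and to 4 in libraries of at least 2000000 counts (0 by rank). They fell to 2 and 1 within the control and methionine lines. Over sire means they fell to 0, where r was 0.12 for CHD5 and 0.36 for RNF8. Squamous relations called over sire means were 2 of 6, with r = 0.00033 for RNF8. Within the control and methionine lines they were 5 and 4 of 6 (4 and 3 by rank). Simple epithelium relations called fell from 5 to 3 with total counts, to 3 and 2 within the control and methionine lines and to 0 over sire means, where r was 0.13 for RNF8. Earlier germ cell relations called rose from 0 to 6 with total counts. Relations with the log2 total count rose from 3 to 6 with total counts and fell to 1 in libraries of at least 2000000 counts and to 0 within either line and over sire means. Fewer samples enter the within-line and sire-mean settings, and other causes were not tested. No share of all genes was computed for the settings with fewer samples or for residuals. By rank with TMM scaling the calls were 5 for leukocyte, 6 for simple epithelium and 4 for the log2 total count, but with total counts they were 3 for squamous and 0 for simple epithelium, and over sire means 3 for sperm and 3 for simple epithelium. The alternatives for methylation near the members were not run.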
